A study of Mus musculus with 14 samples.

Results

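Regulatory T cells (Tregs) from MC38 flank tumors were compared with Tregs from spleen in the libraries labelled Flox, which were 6 of the 14 libraries of the series: Tumor Flox replicates 1 to 3 and Spleen Flox replicates 1 to 3. The libraries were chosen by their labels alone. The mice carried the strain label B6.IL23RFlox FoxP3Cre-YFP, in which a Cre recombinase driven by the Foxp3 promoter, made together with yellow fluorescent protein (YFP), is designed to delete a floxed Il23r gene in cells that express Foxp3. Both tissues are labelled as taken at the endpoint of growth of a flank tumor of MC38, a mouse colon carcinoma line, so the spleen libraries also came from tumor-bearing mice. Cells were sorted by FoxP3-YFP directly after isolation, and polyadenylated RNA was sequenced after an ultra-low-input preparation. The other 8 libraries, labelled B6.IL23RWT FoxP3Cre-YFP, carry the same Cre-YFP without the floxed alleles and enter below only as a comparison. The labels give no age, and they do not say whether replicates were separate mice or pools, so the p-values reflect no more than how these samples scatter, and that scatter may be technical.

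Tregs are CD4 T cells that depend on the transcription factor Foxp3 and restrain other immune cells through inhibitory receptors, cytokines and enzymes that make adenosine. Resting Tregs circulate through spleen and lymph nodes and share transcription factors such as Tcf7 and Bach2 with naive T cells. Tregs that have settled in a tissue or a tumor are known for stronger antigen receptor signals, for co-stimulatory receptors of the TNF receptor family, for the chemokine receptor Ccr8 and for metabolism fit for little oxygen and glucose. The product of Il23r pairs with Il12rb1 to bind IL-23, which myeloid cells make during inflammation.

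The 6 libraries held 7829623 to 10333892 counts, and between 13773 and 14773 genes were detected with a count or more. Il23r itself had 4, 7 and 6 counts in the tumor and 1, 0 and 9 counts in the spleen libraries, too few for a test. Which exons the Cre removes is not stated in the labels, so counts over the whole gene do not check the deletion, and the libraries are called Flox-labelled. The labelled cell type was checked against its markers, and Foxp3, Il2ra and Ikzf2 and the T cell genes Cd3e (244, 401 and 200 CPM in tumor and 248, 246 and 267 CPM in spleen) and Cd4 (306, 1105 and 163 CPM in tumor and 303, 787 and 231 CPM in spleen) were present in all 6 libraries. The Y-linked gene Ddx3y stood at 333, 452 and 661 CPM in tumor and 341, 277 and 310 CPM in spleen, so both tissues held Y-linked transcripts in every library. Xist, the RNA that silences an X chromosome in female cells, stood at 3.4, 1.58 and 2.38 CPM in tumor and 0.824, 0.861 and 0.508 CPM in spleen and passed the test as higher in tumor (log2 fold change 1.78 ± 0.42, adjusted p = 0.0357), at a level far below Ddx3y. Its reads cannot be told apart from those of the antisense gene Tsix. Xist lost its call without any 1 spleen library or Tumor Flox replicate 1 or 3 (adjusted p 0.0801 to 0.151).

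Of 10760 genes with enough counts to be tested, 1196 (11.1%) passed edgeR's quasi-likelihood test at an adjusted p under 0.05, which is the meaning of "called" throughout. Of these 616 (5.72%) were higher and 580 (5.39%) lower in tumor, against 3114 genes at an unadjusted p under 0.05. Counts of called members in each list below are to be read against these 2 shares of all genes. Levels are given as CPM, the counts divided by library size after TMM scaling, and differences as log2 fold changes of tumor over spleen with their standard error (SE), each over 3 libraries per tissue. The called changes were large, with a median log2 fold change of 3.25 among genes called higher and -3.64 among those called lower, where the median over all genes tested was 0.04. The spread between libraries was large as well, with a biological coefficient of variation of 0.729 and a median SE of 0.634, so small changes were hard to call. The tumor and spleen libraries did not overlap in 3555 genes (33%), and in 1195 of the 1196 called genes. For a single gene an exact permutation test of 3 against 3 could not go below a p of 0.10. The number of calls fell to 520, 513 and 588 without Spleen Flox replicate 1, 2 or 3, and to 595, 1074 and 614 without Tumor Flox replicate 1, 2 or 3. The direction of the remaining calls moved with the tissue that lost a library, with 32.7 to 35% of calls higher in tumor when a spleen library was left out and 66.3 to 68.6% when a tumor library was left out, against 51.5% with all 6. In these bulk libraries, fewer cells of a type and less RNA per cell cannot be told apart.

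**Figure D1:**
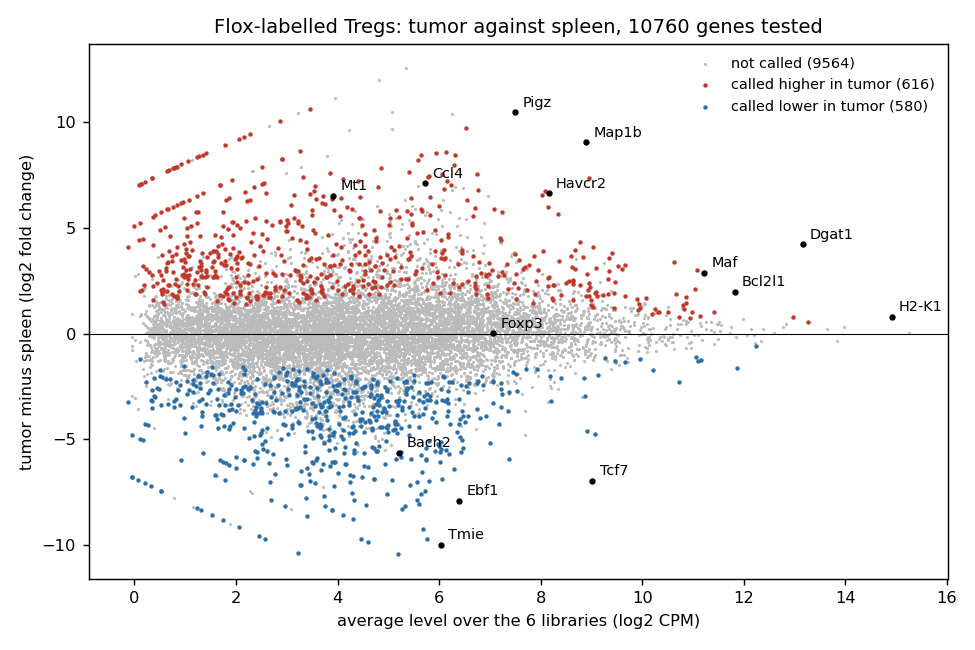
Each point is 1 of the 10760 genes tested, with its average level over the 6 Flox-labelled libraries (log2 CPM) on the horizontal axis and the log2 fold change of tumor over spleen on the vertical axis. The 616 genes called higher (red) and 580 called lower (blue) are drawn over the other genes (grey), Foxp3 lies at 0.03, and among the most abundant genes Dgat1 lies at 4.23 and H2-K1 at 0.81.

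The genes with the largest changes at an average of at least 2 log2 CPM included transcripts that were nearly absent from one of the sites. Pigz, which encodes a mannosyltransferase of GPI anchor synthesis (chromosome 16, 31926965 to 31946048, GRCm38), stood at 252, 334 and 497 CPM in tumor and 0.206, 0.492 and 0.0847 CPM in spleen (log2 fold change 10.49 ± 0.71, adjusted p = 0.000344). Map1b, which encodes a microtubule-associated protein best known from neurons (chromosome 13, 99421464 to 99516602), stood at 782, 368 and 1718 CPM in tumor and 3.3, 1.23 and 0.847 CPM in spleen (log2 fold change 9.06 ± 0.92, adjusted p = 0.00405). Sox9, a transcription factor of cartilage and epithelial progenitors (chromosome 11, 112782210 to 112787757), stood at 240, 21.9 and 289 CPM in tumor and 0.309, 0.123 and 0.169 CPM in spleen (log2 fold change 9.73 ± 1.24, adjusted p = 0.00348). In each of the 3 genes the tumor libraries were all more than 20 CPM and the spleen libraries all under 4 CPM. Col6a3, a collagen VI chain, was at 26.7, 9.98 and 27.7 CPM in tumor with no counts in spleen, which is at least 219-fold higher in tumor against a floor of 3 counts over the group. Against the same floor the gene Tcim was at least 145-fold higher in tumor and the uridine phosphorylase gene Upp1 at least 94.1-fold higher in tumor. The homeobox gene Rhox5 was at least 87.9-fold higher in tumor and the podosome gene Sh3pxd2b at least 79.9-fold higher in tumor. Of these genes 3 more had 1 count in spleen, and their count ratios were 537-fold (95% counting interval 95.9 to 21247) for the actin-bundling gene Fscn1, 447-fold (95% counting interval 79.8 to 17714) for the immediate early gene Ier3 and 440-fold (95% counting interval 78.6 to 17442) for the collagen VI chain Col6a2. Sytl3, a vesicle-trafficking gene, stood at 102, 248 and 69.1 CPM in tumor and 0.515, 0.615 and 0 CPM in spleen (log2 fold change 8.62 ± 0.98, adjusted p = 0.00249). In other genes the tumor libraries were far apart. Trim36, a ubiquitin ligase gene, stood at 53.9, 244 and 3.41 CPM in tumor and 0, 0.123 and 0.593 CPM in spleen, Zfhx3, a transcription factor gene, at 5.41, 216 and 255 CPM in tumor and 1.13, 0 and 0.169 CPM in spleen, and Ak4, a mitochondrial adenylate kinase gene, at 2.55, 1.44 and 282 CPM in tumor and 0.412, 0 and 0.424 CPM in spleen. Col6a3 lost its call without Tumor Flox replicate 1 or 3 (adjusted p 0.0567 to 0.0571). Rhox5, Trim36 and Zfhx3 lost their calls without any 1 spleen library (adjusted p 0.0719 to 0.114). Fscn1 and Ier3 lost their calls without any 1 spleen library or Tumor Flox replicate 1 or 3 (adjusted p 0.0501 to 0.0824). Ak4 lost its call without any 1 spleen library or Tumor Flox replicate 3 (adjusted p 0.0742 to 0.173). Pigz, Map1b, Sox9, Tcim, Upp1, Sh3pxd2b, Col6a2 and Sytl3 were called in all 6 fits with 1 library left out.

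Among the genes with the largest falls, 4 mark B cells or plasma cells. Jchain, which encodes the chain that joins secreted antibodies, stood at 24.6, 11.9 and 17.6 CPM in spleen with no counts in tumor and was at least 158-fold lower in tumor. Ms4a1, which encodes CD20, stood at 0.212, 0 and 0.114 CPM in tumor and 113, 54.1 and 156 CPM in spleen, a count ratio of 981-fold (95% counting interval 335 to 4758) in favour of spleen. Ebf1, a transcription factor that B cells need (chromosome 11, 44618100 to 45008096), stood at 1.27, 0.131 and 0.568 CPM in tumor and 172, 155 and 175 CPM in spleen (log2 fold change -7.90 ± 0.72, adjusted p = 0.00216). Cr2, a complement receptor of B cells, stood at 0, 0 and 0.114 CPM in tumor and 22.9, 14.9 and 7.37 CPM in spleen, a ratio of 375-fold (95% counting interval 66.9 to 14841). The remaining genes are not on the B cell list used here. Tmie, which encodes a membrane protein of hair cells in the inner ear (chromosome 9, 110865687 to 110880073), stood at 0.212, 0 and 0.114 CPM in tumor and 147, 134 and 111 CPM in spleen, with a count ratio of 1114-fold (95% counting interval 381 to 5405). Hcn3, a pacemaker channel gene, stood at 0, 0.263 and 0.227 CPM in tumor and 171, 92.6 and 43 CPM in spleen (log2 fold change -9.24 ± 1.06, adjusted p = 0.00348). Wdr66 stood at 0.106, 0.919 and 0.114 CPM in tumor and 162, 55.1 and 71.9 CPM in spleen (log2 fold change -8.05 ± 0.94, adjusted p = 0.00249). The spleen level came largely from 1 library for Sarm1, an NAD-cleaving enzyme gene (30.9, 192 and 16 CPM), for St8sia6, a sialyltransferase gene (9.47, 69.5 and 9.07 CPM), for Dnase1 (64.5, 181 and 37.3 CPM) and for Tarbp1 (28, 84.1 and 7.63 CPM). Zdhhc14, a palmitoyltransferase gene, had no counts in tumor and was at least 90.4-fold lower in tumor. Count ratios in favour of spleen were 316-fold (95% counting interval 56.3 to 12500) for the cadherin-related gene Cdhr3, 270-fold (95% counting interval 74.5 to 2237) for the channel gene Tmc4, 348-fold (95% counting interval 96 to 2877) for the MHC class II loading gene H2-DMb2 and 333-fold (95% counting interval 91.9 to 2755) for St8sia6. These intervals cover counting error only. Cr2, Sarm1, Tarbp1 and H2-DMb2 lost their calls without Tumor Flox replicate 1 or 3 (adjusted p 0.0503 to 0.072). St8sia6 and Tmc4 lost their calls without any 1 tumor library (adjusted p 0.0634 to 0.112). Zdhhc14 lost its call without Spleen Flox replicate 2 or Tumor Flox replicate 1 or 3 (adjusted p 0.0536 to 0.0575). Jchain, Ms4a1, Ebf1, Tmie, Hcn3, Wdr66, Dnase1 and Cdhr3 were called in all 6 fits with 1 library left out.

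Foxp3 did not pass the test, and other genes of Treg identity were called in both directions. Cells of both tissues had been sorted by FoxP3-YFP, a reporter tied to this gene. Its values therefore cannot show how Foxp3 differs between the sites without that selection. Foxp3 (chromosome X, 7579676 to 7595243) stood at 119, 161 and 124 CPM in tumor and 134, 121 and 142 CPM in spleen, with overlapping groups and a log2 fold change of 0.03 ± 0.40 (adjusted p = 0.974), and its value ran from -0.09 to 0.13 with 1 library left out. Of 29 tested genes of Treg identity 5 were called higher and 5 lower, with a median log2 fold change of 0.03 that changed sign in 5 of 9 other settings. Members of this list called higher numbered 2, 2 and 2 without Spleen Flox replicate 1, 2 or 3, and 3, 4 and 3 without Tumor Flox replicate 1, 2 or 3. Members called lower numbered 2, 2 and 1 without Spleen Flox replicate 1, 2 or 3, and 2, 2 and 1 without Tumor Flox replicate 1, 2 or 3. Ctla4, the inhibitory receptor that takes up the co-stimulatory ligands CD80 and CD86 (chromosome 1, 60909025 to 60915832), stood at 831, 558 and 794 CPM in tumor and 86.4, 70.1 and 106 CPM in spleen (log2 fold change 3.05 ± 0.37, adjusted p = 0.00738). Entpd1, which encodes the ATP-cleaving enzyme CD39, stood at 134, 126 and 102 CPM in tumor and 11.2, 11.1 and 8.13 CPM in spleen (log2 fold change 3.58 ± 0.50, adjusted p = 0.0109). Tnfrsf18, which encodes the co-stimulatory receptor GITR, stood at 126, 147 and 117 CPM in tumor and 23.9, 22.3 and 26.5 CPM in spleen (log2 fold change 2.42 ± 0.45, adjusted p = 0.0214). The 3 tumor libraries lay above the 3 spleen libraries in each of these genes. Ikzf2, the gene of Helios, rose less (2988, 3205 and 2532 CPM in tumor and 2007, 1298 and 1530 CPM in spleen, log2 fold change 0.85 ± 0.20, adjusted p = 0.0448), and the actin-capping gene Capg was the fifth call higher (log2 fold change 1.95 ± 0.46, adjusted p = 0.0421). Il2ra, the high-affinity chain of the IL-2 receptor, stood at 1019, 1612 and 952 CPM in tumor and 464, 651 and 576 CPM in spleen without overlap and was not called (log2 fold change 1.08 ± 0.30, adjusted p = 0.0666). Bach2, a repressor that keeps T cells quiescent, fell from 51.2, 98.8 and 67.7 CPM in spleen to 2.65, 0.919 and 0.681 CPM in tumor (log2 fold change -5.63 ± 0.71, adjusted p = 0.00748). The other 4 genes called lower were the receptor gene Gpr83 and the transcription factor genes Plagl1, Gata1 and Foxo1, and Plagl1 stood at 1.06, 0.263 and 0.341 CPM in tumor and 22.8, 1.97 and 108 CPM in spleen. Tnfrsf18 lost its call without any 1 spleen library (adjusted p 0.0786 to 0.0838). Ikzf2, Capg and Foxo1 lost their calls without any 1 of the 6 libraries (adjusted p 0.0566 to 0.132). Gpr83 lost its call without any 1 spleen library or Tumor Flox replicate 3 (adjusted p 0.055 to 0.0727). Plagl1 lost its call without Spleen Flox replicate 1 or 3 or any 1 tumor library (adjusted p 0.0597 to 0.128). Gata1 lost its call without Spleen Flox replicate 2 or 3 or any 1 tumor library (adjusted p 0.0614 to 0.114). Ctla4, Entpd1 and Bach2 were called in all 6 fits with 1 library left out. Reads of Foxp3 and of the noncoding gene Flicr and the gene Ccdc22, which overlap it, cannot be told apart because the strand of counting is not given. Flicr, named after its values were seen, stood at 1.06, 1.44 and 0.795 CPM in tumor and 9.06, 72 and 5.68 CPM in spleen (log2 fold change -4.70 ± 1.22, adjusted p = 0.0499). Flicr lost its call without Spleen Flox replicate 1 or any 1 tumor library (adjusted p 0.0632 to 0.157). Tnfrsf18 likewise overlaps the noncoding gene Gm16008.

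**Figure D2:**
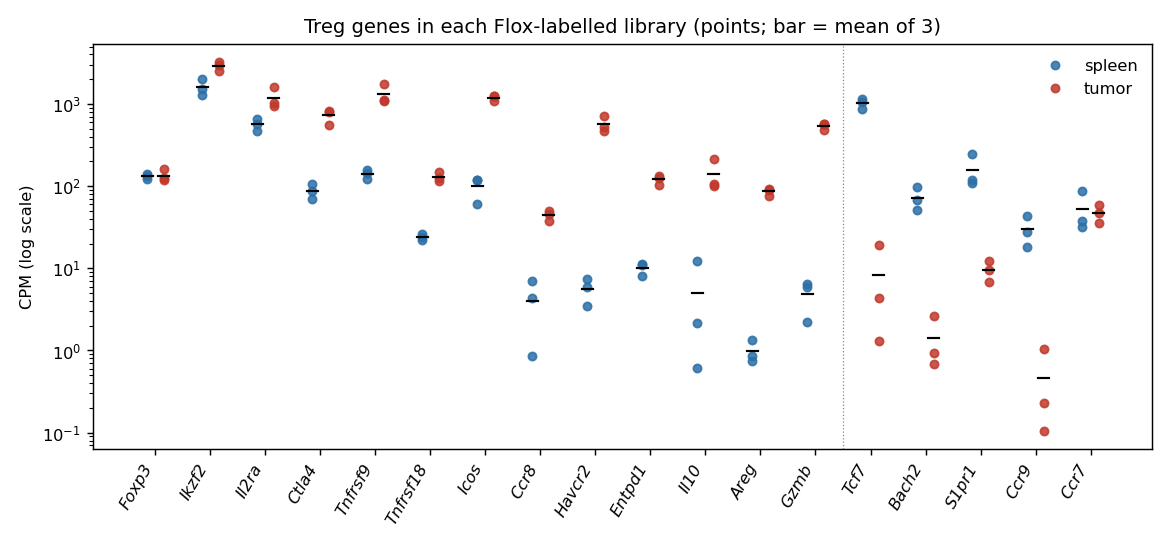
Points give the CPM (log scale) of Treg genes in each of the 3 spleen (blue) and 3 tumor (red) Flox-labelled libraries, and bars give the mean of 3. To the left of the dotted line are identity and effector genes, where Foxp3 overlaps between tissues and Gzmb stands at 479 to 563 CPM in tumor against 2.21 to 6.38 CPM in spleen. To its right are genes of resting cells, where Tcf7 and Bach2 do not overlap and Ccr7 does.

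Genes of effector and tissue Tregs were higher in tumor. Of 37 members tested 24 were called higher and none lower, against 5.72% of all genes called higher, with a median log2 fold change of 2.94. Gzmb, the cytotoxic protease granzyme B (chromosome 14, 56258836 to 56262334), stood at 479, 563 and 563 CPM in tumor and 6.38, 2.21 and 5.85 CPM in spleen (log2 fold change 6.77 ± 0.56, adjusted p = 0.00289). Havcr2, which encodes the inhibitory receptor TIM-3 (chromosome 11, 46454931 to 46481255), stood at 711, 464 and 521 CPM in tumor and 5.97, 7.5 and 3.47 CPM in spleen (log2 fold change 6.66 ± 0.53, adjusted p = 0.00271). Areg, which encodes the tissue repair growth factor amphiregulin, stood at 90.5, 76.8 and 91.6 CPM in tumor and 1.34, 0.738 and 0.847 CPM in spleen (log2 fold change 6.44 ± 0.59, adjusted p = 0.00289). These 3 genes were near 0 to 8 CPM in every spleen library and at least 76 CPM in every tumor library. Maf, a transcription factor of Il10-producing T cells, stood at 3132, 5770 and 3686 CPM in tumor and 656, 434 and 612 CPM in spleen (log2 fold change 2.89 ± 0.29, adjusted p = 0.00438). Tnfrsf9, the co-stimulatory receptor 4-1BB, stood at 1094, 1117 and 1755 CPM in tumor and 122, 145 and 157 CPM in spleen (log2 fold change 3.23 ± 0.32, adjusted p = 0.004). Ccr8, the chemokine receptor used to mark tumor Tregs, stood at 45.8, 50 and 37.7 CPM in tumor and 4.33, 0.861 and 6.95 CPM in spleen (log2 fold change 3.40 ± 0.68, adjusted p = 0.0267). Every library detected these genes, and every tumor library lay above every spleen library. Mt1, a metallothionein gene described below with its promoter, was the sixth gene named in this group. The regulators Prdm1, Batf and Irf4 were not called. Prdm1, which encodes Blimp-1, stood at 290, 73.9 and 480 CPM in tumor and 31.8, 2.83 and 7.88 CPM in spleen (log2 fold change 4.30 ± 1.09, adjusted p = 0.0522). Batf stood at 26.1, 13.9 and 13.7 CPM in tumor and 14.9, 7.5 and 13.6 CPM in spleen (log2 fold change 0.57 ± 0.49, adjusted p = 0.473). Irf4 stood at 30.7, 28.6 and 26.1 CPM in tumor and 180, 85.7 and 9.91 CPM in spleen (log2 fold change -1.69 ± 0.94, adjusted p = 0.281), with Batf and Irf4 overlapping between the tissues. The number of members called higher was 10, 10 and 12 without Spleen Flox replicate 1, 2 or 3, and 17, 18 and 18 without Tumor Flox replicate 1, 2 or 3. Ccr8 lost its call without any 1 of the 6 libraries (adjusted p 0.0532 to 0.094). Gzmb, Havcr2, Areg, Maf and Tnfrsf9 were called in all 6 fits with 1 library left out.

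Suppressive cytokines and ectoenzymes were also higher in tumor. Of 19 members tested 13 were called higher and none lower (median log2 fold change 3.58). Il10, the suppressive cytokine, stood at 212, 99 and 106 CPM in tumor and 2.16, 0.615 and 12.4 CPM in spleen (log2 fold change 4.71 ± 1.00, adjusted p = 0.0319). Prf1, the pore-forming perforin, stood at 17.1, 30.2 and 11.8 CPM in tumor and 1.34, 1.48 and 0.847 CPM in spleen (log2 fold change 4.02 ± 0.58, adjusted p = 0.0109). Lgals3, which encodes galectin-3, stood at 47.7, 25.9 and 38.3 CPM in tumor and 3.6, 1.72 and 3.05 CPM in spleen (log2 fold change 3.71 ± 0.54, adjusted p = 0.0126). In each of these every tumor library lay above every spleen library. Areg, Gzmb, Ctla4 and Entpd1, with the values above, were among the 13. Tgfb1 was not called (56.1, 59.9 and 44.4 CPM in tumor and 30.9, 29.9 and 34.8 CPM in spleen, log2 fold change 0.75 ± 0.44, adjusted p = 0.303). The number called higher was 6, 7 and 8 without Spleen Flox replicate 1, 2 or 3, and 10, 10 and 10 without Tumor Flox replicate 1, 2 or 3. Il10 lost its call without Spleen Flox replicate 1 or 2 or any 1 tumor library (adjusted p 0.0546 to 0.107). Prf1 and Lgals3 were called in all 6 fits with 1 library left out. Of this list, 8 of the 13 called genes also belong to the effector list, so the counts of these lists are not independent.

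Genes of resting and recirculating T cells were lower in tumor. Of 32 members tested 12 were called lower and none higher (5.39% of all genes were called lower), with a median log2 fold change of -1.42. Tcf7, the transcription factor TCF-1 of naive and memory T cells (chromosome 11, 52246527 to 52283383), stood at 4.35, 1.31 and 19.1 CPM in tumor and 877, 1149 and 1055 CPM in spleen (log2 fold change -6.95 ± 0.92, adjusted p = 0.00959). S1pr1, the receptor that lets lymphocytes leave tissue, stood at 6.9, 9.59 and 12.4 CPM in tumor and 249, 119 and 110 CPM in spleen (log2 fold change -4.05 ± 0.62, adjusted p = 0.014). Ccr9, a gut-homing chemokine receptor, stood at 0.106, 1.05 and 0.227 CPM in tumor and 18.2, 43.8 and 27.9 CPM in spleen (log2 fold change -6.07 ± 0.79, adjusted p = 0.00364). Tcf7 thus had at least 877 CPM in each spleen library and reached at most 19.1 CPM in tumor. Rasgrp2, an exchange factor that activates integrins through Rap1, had a log2 fold change of -3.72 ± 0.44, and Treml2 had -5.99 ± 1.10 with spleen values of 7.11, 51.4 and 11.2 CPM. Bach2, with the values above, was also among the 12. Not every homing gene followed. Ccr7, the lymph node homing receptor, stood at 58.3, 35.6 and 46.5 CPM in tumor and 31.7, 86.4 and 38.1 CPM in spleen (log2 fold change -0.15 ± 0.57, adjusted p = 0.884). Klf2, a factor that drives S1pr1 in resting cells, stood at 26.3, 10.4 and 27.5 CPM in tumor and 28.6, 36.3 and 34.5 CPM in spleen (log2 fold change -0.62 ± 0.52, adjusted p = 0.461). Ccr7 overlapped between tissues, Klf2 did not, and neither was called. Ccr7 had no stable sign, with -0.45 to 0.39 when 1 library was left out. Lef1, a partner of Tcf7, stood at 7.85, 122 and 4.2 CPM in tumor and 172, 138 and 189 CPM in spleen and was not called (log2 fold change -1.90 ± 1.18, adjusted p = 0.329), with Tumor Flox replicate 2 near the spleen level. The number called lower was 7, 8 and 8 without Spleen Flox replicate 1, 2 or 3, and 6, 9 and 9 without Tumor Flox replicate 1, 2 or 3. Treml2 lost its call without any 1 tumor library (adjusted p 0.0613 to 0.0743). Tcf7, S1pr1, Ccr9 and Rasgrp2 were called in all 6 fits with 1 library left out. Tcf7 overlaps the gene Skp1 in the annotation.

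Among receptors, chemokine receptors split by direction. Of 20 tested 6 were called higher and 4 lower. Those called higher numbered 4, 4 and 3 without Spleen Flox replicate 1, 2 or 3, and 5, 6 and 5 without Tumor Flox replicate 1, 2 or 3. Ccr2, the receptor for Ccl2 on monocytes and effector T cells, stood at 4146, 1866 and 2673 CPM in tumor and 291, 261 and 264 CPM in spleen (log2 fold change 3.41 ± 0.33, adjusted p = 0.00364). Ccr1, which binds Ccl3 and Ccl5, stood at 12.7, 9.32 and 12.4 CPM in tumor and 0.206, 0.123 and 0.424 CPM in spleen (log2 fold change 5.35 ± 0.49, adjusted p = 0.000662). The lipid receptor gene Gpr55 had a log2 fold change of 3.12 ± 0.50. Called lower, beside Ccr9 and S1pr1, were Cxcr5, the receptor for entry into B cell follicles, at 4.46, 2.89 and 2.16 CPM in tumor and 182, 50.3 and 91.8 CPM in spleen (log2 fold change -5.08 ± 0.77, adjusted p = 0.0137), and Ccr6 (log2 fold change -3.08 ± 0.76, adjusted p = 0.0475). Cxcr3, a receptor of Th1 cells, was not called (23.3, 26.8 and 19.3 CPM in tumor and 9.99, 6.64 and 11.5 CPM in spleen, log2 fold change 1.29 ± 0.43, adjusted p = 0.107). Gpr55 lost its call without Spleen Flox replicate 3 (adjusted p = 0.0508). Ccr6 lost its call without any 1 spleen library or Tumor Flox replicate 2 or 3 (adjusted p 0.0993 to 0.125). Ccr2, Ccr1 and Cxcr5 were called in all 6 fits with 1 library left out.

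Other surface receptors moved in both directions. Of 23 integrin and adhesion genes 2 (8.7%) were called higher and 4 (17.4%) lower. Over all genes tested these shares were 5.72% and 5.39%, so the higher calls were near the background. Those called lower numbered 2, 2 and 2 without Spleen Flox replicate 1, 2 or 3, and 0, 2 and 0 without Tumor Flox replicate 1, 2 or 3. Cd44, a receptor for hyaluronan, stood at 716, 1096 and 763 CPM in tumor and 200, 276 and 200 CPM in spleen (log2 fold change 1.93 ± 0.33, adjusted p = 0.0171). Itgav, the alpha chain of integrins that activate TGF-beta, stood at 490, 796 and 762 CPM in tumor and 171, 77.8 and 103 CPM in spleen (log2 fold change 2.54 ± 0.44, adjusted p = 0.0177). Itga4, the alpha chain of the gut and inflamed-vessel integrins, stood at 8.81, 4.86 and 7.95 CPM in tumor and 86, 249 and 87.5 CPM in spleen (log2 fold change -4.28 ± 0.71, adjusted p = 0.016). Cd226, an activating receptor that shares ligands with Tigit, stood at 3.29, 1.31 and 3.97 CPM in tumor and 30.2, 113 and 99.7 CPM in spleen (log2 fold change -4.79 ± 0.80, adjusted p = 0.0162), and the integrin gene Itga6 and the receptor gene Cd96 had log2 fold changes of -2.41 ± 0.56 and -2.99 ± 0.70. Of 18 TNF receptor family genes 3 were called higher and 2 lower. For higher calls the number was 1, 1 and 1 without Spleen Flox replicate 1, 2 or 3, and 2, 2 and 3 without Tumor Flox replicate 1, 2 or 3. Besides Tnfrsf9 and Tnfrsf18, Tnfrsf4, which encodes OX40, stood at 199, 244 and 174 CPM in tumor and 45.3, 26.1 and 57.7 CPM in spleen (log2 fold change 2.25 ± 0.50, adjusted p = 0.0353). Tnfrsf25, the receptor of TL1A, fell (1.49, 1.84 and 0.795 CPM in tumor and 13.2, 11.2 and 8.47 CPM in spleen, log2 fold change -2.99 ± 0.46, adjusted p = 0.0125), and so did the decoy receptor Tnfrsf26 (551, 336 and 862 CPM in tumor and 3008, 3195 and 2228 CPM in spleen, log2 fold change -2.27 ± 0.37, adjusted p = 0.0154). Of 18 inhibitory receptors 6 were called higher and 1, Cd96, lower. Higher calls among them numbered 3, 3 and 3 without Spleen Flox replicate 1, 2 or 3, and 5, 5 and 4 without Tumor Flox replicate 1, 2 or 3. Lag3, a receptor for MHC class II, stood at 80.8, 216 and 37.1 CPM in tumor and 2.27, 1.23 and 2.97 CPM in spleen (log2 fold change 5.64 ± 0.93, adjusted p = 0.0159). Lilrb4a stood at 173, 16.8 and 364 CPM in tumor and 2.88, 1.84 and 2.2 CPM in spleen (log2 fold change 6.31 ± 1.25, adjusted p = 0.0262), where Tumor Flox replicate 2 was far below the other tumor libraries. Pdcd1, which encodes PD-1, stood at 23.7, 33.6 and 21.3 CPM in tumor and 6.28, 4.55 and 10.9 CPM in spleen and was not called (log2 fold change 1.83 ± 0.50, adjusted p = 0.0656). Cd44 and Lag3 lost their calls without any 1 spleen library (adjusted p 0.0524 to 0.0707). Itgav lost its call without Spleen Flox replicate 2 or 3 (adjusted p 0.061 to 0.0719). Itga4, Cd226 and Tnfrsf25 lost their calls without Tumor Flox replicate 1 or 3 (adjusted p 0.0501 to 0.0543). Itga6, Cd96 and Tnfrsf4 lost their calls without any 1 of the 6 libraries (adjusted p 0.0508 to 0.11). Tnfrsf26 lost its call without Spleen Flox replicate 1 or 2 or Tumor Flox replicate 1 (adjusted p 0.0515 to 0.0533). Lilrb4a lost its call without any 1 spleen library or Tumor Flox replicate 1 or 3 (adjusted p 0.0566 to 0.0888).

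Chemokine ligands and cytotoxic genes of type 1 responses were higher in tumor. All 9 chemokine ligands tested had higher values, and 6 were called (median log2 fold change 4.76). Ccl4, an inflammatory chemokine, stood at 107, 123 and 86.2 CPM in tumor and 1.34, 0.246 and 0.593 CPM in spleen (log2 fold change 7.13 ± 0.70, adjusted p = 0.00289). Ccl3, a ligand of Ccr1, stood at 19.7, 25.1 and 24.4 CPM in tumor and 0.206, 0.123 and 0.169 CPM in spleen (log2 fold change 6.99 ± 0.52, adjusted p = 0.000348). Cxcl10, an interferon-induced ligand of Cxcr3, stood at 50.1, 23.1 and 80.7 CPM in tumor and 1.54, 1.72 and 3.14 CPM in spleen (log2 fold change 4.55 ± 0.72, adjusted p = 0.015). Ccl5 stood at 43.2, 55.8 and 45.9 CPM in tumor and 7.62, 2.21 and 5.51 CPM in spleen (log2 fold change 3.22 ± 0.57, adjusted p = 0.0191). Ccl3 and Ccl4 were nearly absent from spleen, while Ccl5 and Cxcl10 were detected in each spleen library. Ccl9 had a log2 fold change of 3.51 ± 0.72, and Ccl7 was at least 49.7-fold higher in tumor with no counts in spleen. Ccl3 and Ccl4 overlap in the annotation, so part of their reads may be shared. Of 23 Th1 and cytotoxic genes 13 were called higher and 1 lower (median log2 fold change 2.94), and 3 of the 13 are the chemokines Ccl3, Ccl4 and Ccl5. Ifng, the cytokine of Th1 cells, stood at 18.6, 10.1 and 5.22 CPM in tumor and 1.75, 1.35 and 1.53 CPM in spleen (log2 fold change 2.86 ± 0.59, adjusted p = 0.0287). Gzmc, a further granzyme, had a log2 fold change of 3.80 ± 0.51. Tbx21, the transcription factor T-bet, stood at 64.3, 176 and 153 CPM in tumor and 78.7, 1.35 and 0.678 CPM in spleen and was not called (log2 fold change 2.28 ± 1.48, adjusted p = 0.348), and Spleen Flox replicate 1 lay within the range of the tumor libraries. The related factor Eomes was called lower (0.425, 0.131 and 0.341 CPM in tumor and 3.09, 4.18 and 3.47 CPM in spleen, log2 fold change -3.47 ± 0.44, adjusted p = 0.00347). The number of Th1 and cytotoxic genes called higher was 7, 5 and 5 without Spleen Flox replicate 1, 2 or 3, and 11, 11 and 10 without Tumor Flox replicate 1, 2 or 3. For the chemokine ligands it was 2, 2 and 4 without Spleen Flox replicate 1, 2 or 3, and 7, 7 and 5 without Tumor Flox replicate 1, 2 or 3. Cxcl10 lost its call without Spleen Flox replicate 1 or 2 (adjusted p 0.0572 to 0.0596). Ccl5 and Ccl9 lost their calls without any 1 spleen library (adjusted p 0.051 to 0.0913). Ccl7 lost its call without any 1 spleen library or Tumor Flox replicate 2 or 3 (adjusted p 0.051 to 0.0927). Ifng lost its call without any 1 spleen library or Tumor Flox replicate 1 or 2 (adjusted p 0.0543 to 0.0893). Ccl4, Ccl3, Gzmc and Eomes were called in all 6 fits with 1 library left out.

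Some targets of antigen receptor and NF-kB signalling and some members of the AP-1 family were called higher in tumor, while most members were not called. Of 27 antigen receptor response genes 6 were called higher and 1, Egr2, lower, and 10 of the 27 had lower values. Icos, a co-stimulatory receptor, stood at 1082, 1262 and 1235 CPM in tumor and 120, 61 and 118 CPM in spleen (log2 fold change 3.58 ± 0.37, adjusted p = 0.00469). Dusp5, a phosphatase that ends ERK signalling, stood at 17.9, 34.9 and 19.1 CPM in tumor and 1.75, 2.83 and 2.71 CPM in spleen (log2 fold change 3.29 ± 0.52, adjusted p = 0.015). Spry2, a further ERK inhibitor, stood at 30.1, 12.9 and 36.4 CPM in tumor and 0, 0.123 and 0.847 CPM in spleen (log2 fold change 6.13 ± 0.90, adjusted p = 0.00577). All 13 AP-1 family genes tested had higher values in tumor and 5 were called. Fosl2 stood at 108, 75.6 and 58.9 CPM in tumor and 1.85, 0.738 and 1.61 CPM in spleen (log2 fold change 5.81 ± 0.65, adjusted p = 0.00538). Atf3 stood at 4.56, 38.7 and 21.6 CPM in tumor and 0.206, 0.246 and 0.169 CPM in spleen (log2 fold change 6.63 ± 0.97, adjusted p = 0.00543), and the small Maf protein gene Maff had a log2 fold change of 3.02 ± 0.48. Of 24 NF-kB genes 4 were called higher and none lower, and 6 had lower values. The inhibitor gene Nfkbia, itself an NF-kB target, stood at 298, 340 and 483 CPM in tumor and 98.9, 101 and 105 CPM in spleen (log2 fold change 1.87 ± 0.39, adjusted p = 0.0294). Nfkbie stood at 86.1, 46.9 and 46.8 CPM in tumor and 11.3, 4.55 and 7.2 CPM in spleen (log2 fold change 2.95 ± 0.59, adjusted p = 0.0265). The other 2 calls, Bcl2a1b (45.7, 50 and 35.8 CPM in tumor and 7, 8.11 and 8.3 CPM in spleen) and Bcl2a1d (27.9, 22.7 and 19.8 CPM in tumor and 2.27, 5.04 and 3.64 CPM in spleen), are near-identical copies whose reads the counting may have split. Antigen receptor genes called higher numbered 3, 3 and 4 without Spleen Flox replicate 1, 2 or 3, and 4, 5 and 5 without Tumor Flox replicate 1, 2 or 3. NF-kB genes called higher numbered 0, 0 and 0 without Spleen Flox replicate 1, 2 or 3, and 2, 5 and 2 without Tumor Flox replicate 1, 2 or 3. AP-1 genes called higher numbered 4, 3 and 5 without Spleen Flox replicate 1, 2 or 3, and 4, 5 and 4 without Tumor Flox replicate 1, 2 or 3. Some genes that respond to cell handling were called too, in numbers of 1, 1 and 1 without Spleen Flox replicate 1, 2 or 3, and 3, 4 and 1 without Tumor Flox replicate 1, 2 or 3. Of 30 immediate early and heat shock genes 23 had higher values and 4 were called, among them Klf6 (1227, 824 and 1717 CPM in tumor and 304, 407 and 394 CPM in spleen, log2 fold change 1.77 ± 0.34, adjusted p = 0.0237) and the chaperone gene Dnaja1 (1170, 1331 and 1468 CPM in tumor and 626, 648 and 537 CPM in spleen, log2 fold change 1.13 ± 0.22, adjusted p = 0.0252), and their part in the preceding results was not tested. Egr2 lost its call without Spleen Flox replicate 1 or 3 or any 1 tumor library (adjusted p 0.0623 to 0.148). Dusp5 and Bcl2a1d lost their calls without any 1 spleen library (adjusted p 0.0508 to 0.0682). Maff lost its call without Spleen Flox replicate 2 (adjusted p = 0.056). Nfkbia and Dnaja1 lost their calls without any 1 spleen library or Tumor Flox replicate 3 (adjusted p 0.0513 to 0.0993). Nfkbie and Klf6 lost their calls without any 1 spleen library or Tumor Flox replicate 1 or 3 (adjusted p 0.0504 to 0.0917). Bcl2a1b lost its call without any 1 spleen library or Tumor Flox replicate 1 (adjusted p 0.0501 to 0.0789). Icos, Spry2, Fosl2 and Atf3 were called in all 6 fits with 1 library left out.

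In cytokine pathways most genes were not called. Over all genes tested 5.72% were called higher and 5.39% lower. Called higher were 15.4% of IL-12 and IL-23, 9.52% of IL-2 and STAT5 and 23.1% of IL-1 family genes tested. For TGF-beta, Th2 and Th17 genes the share was 11.1%, 14.3% and 0%. Called lower were 4.76% of IL-2 and STAT5, 5.56% of TGF-beta and 11.1% of Th17 genes. Each share rests on at most 3 genes. Of 13 genes of IL-12 and IL-23 signalling 2 were called higher. Il12rb2, the inducible chain of the IL-12 receptor, stood at 13.4, 89.2 and 6.02 CPM in tumor and 0, 1.23 and 0.508 CPM in spleen (log2 fold change 6.01 ± 1.37, adjusted p = 0.0278), with 1 high tumor library, and it overlaps the abundant gene Serbp1 in the annotation. Of 21 genes of the IL-2 and STAT5 response 2 were called higher and 1 lower, the receptor kinase Jak3 (171, 122 and 348 CPM in tumor and 21.2, 22.6 and 48 CPM in spleen, log2 fold change 2.80 ± 0.64, adjusted p = 0.039), the survival gene Bcl2l1, described below, and the cytokine Lta (1.91, 1.18 and 2.38 CPM in tumor and 7.31, 9.47 and 8.22 CPM in spleen, log2 fold change -2.16 ± 0.40, adjusted p = 0.0203). Of 13 genes of IL-1 family receptors and amphiregulin 3 were called higher, which were Areg, the receptor antagonist gene Il1rn (19.4, 4.99 and 24.1 CPM in tumor and 0.618, 1.11 and 0.424 CPM in spleen, log2 fold change 4.55 ± 0.76, adjusted p = 0.0127) and the adaptor kinase gene Irak2 (82.1, 87.7 and 46.5 CPM in tumor and 15.1, 6.39 and 13.6 CPM in spleen, log2 fold change 2.61 ± 0.57, adjusted p = 0.0351). Of 18 TGF-beta pathway genes 2 were called higher and 1 lower. Smad7, the inhibitor that TGF-beta itself induces, stood at 887, 1265 and 651 CPM in tumor and 280, 314 and 193 CPM in spleen (log2 fold change 1.83 ± 0.37, adjusted p = 0.0277). Smad3, a transducer of the signal, stood at 1.59, 2.36 and 4.2 CPM in tumor and 43.2, 27.7 and 41.3 CPM in spleen (log2 fold change -3.78 ± 0.56, adjusted p = 0.013). These 2 genes of the pathway were called in opposite directions without overlap of the libraries, and the integrin gene Itgav was the other call. Of 7 Th2 genes tested 1 was called (Ccr8, higher) and of 9 Th17 genes 1 (Ccr6, lower), and the medians of both lists changed sign in other settings. Il12rb2 lost its call without any 1 spleen library (adjusted p 0.0785 to 0.119). Jak3 lost its call without any 1 spleen library or Tumor Flox replicate 1 or 3 (adjusted p 0.0681 to 0.123). Lta lost its call without Spleen Flox replicate 2 or 3 or any 1 tumor library (adjusted p 0.0524 to 0.074). Il1rn lost its call without Spleen Flox replicate 1 or 3 (adjusted p 0.0621 to 0.0625). Irak2 and Smad7 lost their calls without any 1 spleen library or Tumor Flox replicate 1 or 2 (adjusted p 0.055 to 0.102). Smad3 was called in all 6 fits with 1 library left out. Higher calls were counted without Spleen Flox replicate 1, 2 or 3 and then without Tumor Flox replicate 1, 2 or 3. In that order they numbered 0, 0, 0, 2, 1 and 1 for IL-12 and IL-23 genes. They numbered 1, 1, 1, 1, 2 and 1 for IL-2 and STAT5 genes and 1, 2, 1, 2, 2 and 3 for IL-1 family genes. For TGF-beta genes they numbered 1, 0, 0, 1, 1 and 2.

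Interferon response genes were higher in tumor. Of 37 type I interferon response genes 34 had higher values, 19 were called higher and none lower (median log2 fold change 2.10). Isg15, a ubiquitin-like modifier, stood at 25.4, 14.6 and 18.7 CPM in tumor and 0.618, 1.11 and 1.1 CPM in spleen (log2 fold change 4.36 ± 0.50, adjusted p = 0.00492). Ifitm3, a membrane restriction factor for viruses, stood at 43.7, 18.8 and 62.4 CPM in tumor and 0.824, 0.615 and 1.27 CPM in spleen (log2 fold change 5.46 ± 0.72, adjusted p = 0.00738). Ifi27l2a was more abundant, at 378, 397 and 302 CPM in tumor and 46.8, 37.7 and 44.6 CPM in spleen (log2 fold change 3.06 ± 0.40, adjusted p = 0.00943). The groups were apart in each of these genes, with at most 1.27 CPM of Isg15 and Ifitm3 in spleen. Log2 fold changes were 3.28 ± 0.48 for Bst2, a tether of virus particles, 3.52 ± 0.49 for the exonuclease gene Isg20 and 3.59 ± 0.42 for Mx2, which is annotated as a transcribed pseudogene. Of 31 interferon-gamma targets and MHC class I genes 29 had higher values and 4 (12.9%) were called higher, against 5.72% of all genes. Those called numbered 1, 1 and 1 without Spleen Flox replicate 1, 2 or 3, and 2, 3 and 2 without Tumor Flox replicate 1, 2 or 3. H2-K1, an MHC class I heavy chain, was among the most abundant transcripts of these libraries, at 35729, 40764 and 41353 CPM in tumor and 24104, 21683 and 21527 CPM in spleen (log2 fold change 0.81 ± 0.07, adjusted p = 0.003). B2m, its light chain, stood at 1870, 2268 and 1693 CPM in tumor and 894, 1020 and 988 CPM in spleen (log2 fold change 1.01 ± 0.19, adjusted p = 0.0236), and the transcription factor gene Irf8 and the GTPase gene Irgm2 had log2 fold changes of 2.46 ± 0.56 and 2.31 ± 0.52. H2-K1 reads may be shared with near-identical class I genes. The number of type I genes called higher was 6, 7 and 8 without Spleen Flox replicate 1, 2 or 3, and 15, 17 and 14 without Tumor Flox replicate 1, 2 or 3. Bst2 lost its call without Spleen Flox replicate 1 (adjusted p = 0.0515). B2m lost its call without any 1 spleen library (adjusted p 0.0766 to 0.0918). Irf8 lost its call without any 1 spleen library or Tumor Flox replicate 1 or 3 (adjusted p 0.0818 to 0.117). Irgm2 lost its call without any 1 of the 6 libraries (adjusted p 0.0519 to 0.118). Isg15, Ifitm3, Ifi27l2a, Isg20, Mx2 and H2-K1 were called in all 6 fits with 1 library left out.

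Every one of the 35 genes of glycolysis and the response to low oxygen had a higher value in tumor, and 19 were called (median log2 fold change 2.27, between 2.10 and 2.31 in 9 other settings). Low oxygen stabilizes the factor HIF-1, which binds short sites with the core ACGTG near its target genes. The 250 bases before the start of Bnip3 (chr7:138909507-138909756, minus strand), Ldha (chr7:46845554-46845803, plus strand) and Ankrd37 (chr8:45999851-46000100, minus strand), from RefSeq on GRCm38.p6, are shown 5′ to 3′ because these 3 genes were called higher and hold that core, with the core on either strand in capitals.
Bnip3: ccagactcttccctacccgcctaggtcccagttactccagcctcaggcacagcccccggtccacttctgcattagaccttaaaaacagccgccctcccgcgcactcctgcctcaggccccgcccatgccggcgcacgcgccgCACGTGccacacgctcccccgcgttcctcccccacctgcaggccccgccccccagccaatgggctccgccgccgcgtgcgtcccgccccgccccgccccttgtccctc
Ldha: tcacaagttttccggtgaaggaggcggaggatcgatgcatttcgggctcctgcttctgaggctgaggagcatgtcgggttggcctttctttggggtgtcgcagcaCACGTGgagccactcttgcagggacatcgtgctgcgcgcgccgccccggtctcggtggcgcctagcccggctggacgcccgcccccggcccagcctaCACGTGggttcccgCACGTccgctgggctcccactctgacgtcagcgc
Ankrd37: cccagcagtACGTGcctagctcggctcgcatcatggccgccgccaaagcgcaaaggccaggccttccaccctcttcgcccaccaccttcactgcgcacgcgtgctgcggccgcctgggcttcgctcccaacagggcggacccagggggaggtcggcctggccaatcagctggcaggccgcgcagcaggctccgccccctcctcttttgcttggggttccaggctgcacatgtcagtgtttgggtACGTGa
ACGTG was searched on both strands, so that the palindrome CACGTG counts once on each. It was in 18 of the 35 promoters (51.4%), in 11 of the 19 called ones (57.9%) and in 4477 of all 27025 promoters of that length (16.6%). A high share was not particular to ACGTG. The letters TGCACNC or TGCGCNC, searched below for metallothionein genes, were in 17 of the same 35 promoters (48.6%). They were in 11 of the 19 called ones (57.9%) and in 21.3% of all promoters. What ACGTG has to do with the calls was not tested. These are matches of letters and no measured sites, and a second listed start of Ldha had 0 of them. Bnip3, a mitophagy receptor induced by low oxygen, stood at 36.3, 45.4 and 48.2 CPM in tumor and 1.24, 1.48 and 1.02 CPM in spleen (log2 fold change 5.13 ± 0.52, adjusted p = 0.00366). Ldha, which turns pyruvate into lactate, stood at 888, 878 and 613 CPM in tumor and 201, 174 and 183 CPM in spleen (log2 fold change 2.09 ± 0.31, adjusted p = 0.013). Ankrd37, a HIF-1 target, stood at 7.11, 3.28 and 7.15 CPM in tumor and 0.206, 0.983 and 0.678 CPM in spleen (log2 fold change 3.25 ± 0.57, adjusted p = 0.0144). Slc16a3, which exports that lactate, stood at 538, 926 and 831 CPM in tumor and 57.5, 47.2 and 40.5 CPM in spleen (log2 fold change 3.98 ± 0.40, adjusted p = 0.00405). In each of these genes every tumor library lay above every spleen library. Aldoa, a glycolytic aldolase, had a log2 fold change of 2.52 ± 0.39 and Ddit4, an inhibitor of mTORC1 induced by stress, had 2.82 ± 0.45. Slc16a3 overlaps the gene Csnk1d in the annotation. The number called was 2, 4 and 4 without Spleen Flox replicate 1, 2 or 3, and 13, 16 and 14 without Tumor Flox replicate 1, 2 or 3. Ldha and Ddit4 lost their calls without any 1 spleen library (adjusted p 0.0511 to 0.0621). Ankrd37 lost its call without Spleen Flox replicate 1 or 3 (adjusted p 0.0562 to 0.0655). Aldoa lost its call without Spleen Flox replicate 1 or 2 (adjusted p 0.056 to 0.0581). Bnip3 and Slc16a3 were called in all 6 fits with 1 library left out.

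Lipid storage was led by 1 gene. Dgat1, the enzyme that makes triglyceride from diacylglycerol (chromosome 15, 76502012 to 76512021), stood at 16098, 14492 and 21486 CPM in tumor and 1117, 820 and 843 CPM in spleen (log2 fold change 4.23 ± 0.20, adjusted p = 0.000348). After TMM scaling this was 1.45 to 2.15% of the library size in tumor against 0.082 to 0.112% in spleen. It was 84.9 to 88.9% of the summed level of the 30 lipid genes in tumor. Hilpda, an inhibitor of fat breakdown induced by low oxygen, stood at 63, 52.3 and 72.9 CPM in tumor and 4.63, 1.84 and 4.15 CPM in spleen (log2 fold change 4.12 ± 0.57, adjusted p = 0.0109). Plin2, a coat protein of lipid droplets, stood at 54, 42.6 and 20.4 CPM in tumor and 2.68, 1.11 and 7.63 CPM in spleen (log2 fold change 3.29 ± 0.76, adjusted p = 0.0408). Gpat4, which starts glycerolipid synthesis, was at the threshold of the test (log2 fold change 1.25 ± 0.31, adjusted p = 0.05). These were the 4 calls among 26 lipid genes tested, all higher, and they numbered 2, 2 and 2 without Spleen Flox replicate 1, 2 or 3, and 2, 2 and 3 without Tumor Flox replicate 1, 2 or 3. Of 29 genes of cholesterol and fatty acid synthesis 1 was called, Msmo1 (19.2, 16.5 and 17.4 CPM in tumor and 4.02, 4.55 and 5.42 CPM in spleen, log2 fold change 1.92 ± 0.39, adjusted p = 0.0277). Plin2 and Gpat4 lost their calls without any 1 of the 6 libraries (adjusted p 0.0519 to 0.149). Msmo1 lost its call without any 1 spleen library or Tumor Flox replicate 1 or 3 (adjusted p 0.0628 to 0.0877). Dgat1 and Hilpda were called in all 6 fits with 1 library left out.

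In amino acid and polyamine metabolism 4 of 20 genes were called higher and none lower. Odc1, the first enzyme of polyamine synthesis, stood at 1000, 1438 and 1353 CPM in tumor and 102, 104 and 59.9 CPM in spleen (log2 fold change 3.83 ± 0.36, adjusted p = 0.00362). Smox and Sat1, which break polyamines down, stood at 503, 652 and 330 CPM in tumor and 26.7, 31.8 and 38 CPM in spleen (log2 fold change 3.94 ± 0.46, adjusted p = 0.00695) and at 2392, 2524 and 2825 CPM in tumor and 1123, 1085 and 813 CPM in spleen (log2 fold change 1.36 ± 0.19, adjusted p = 0.0113). Genes of synthesis and of breakdown were thus both called higher. Slc38a2, a glutamine transporter, stood at 495, 568 and 1412 CPM in tumor and 203, 196 and 132 CPM in spleen (log2 fold change 2.22 ± 0.50, adjusted p = 0.0377), with Tumor Flox replicate 3 above the others. Of 30 unfolded protein response and ATF4 target genes 26 had higher values and 3 (10%) were called higher, against 5.72% of all genes. Those called numbered 0, 1 and 1 without Spleen Flox replicate 1, 2 or 3, and 4, 6 and 3 without Tumor Flox replicate 1, 2 or 3. The 3 were Ddit4, the asparagine synthetase gene Asns (5.2, 6.83 and 9.08 CPM in tumor and 0.309, 0.123 and 1.19 CPM in spleen, log2 fold change 3.53 ± 0.65, adjusted p = 0.0152) and Atf5 (4.56, 1.31 and 3.18 CPM in tumor and 0.206, 0 and 0.254 CPM in spleen, log2 fold change 4.09 ± 0.76, adjusted p = 0.0144), which overlaps the more abundant gene Nup62. Slc38a2 lost its call without any 1 spleen library or Tumor Flox replicate 3 (adjusted p 0.0606 to 0.115). Asns lost its call without Spleen Flox replicate 1 or 2 (adjusted p 0.056 to 0.0724). Atf5 lost its call without Spleen Flox replicate 1 or 3 (adjusted p 0.0718 to 0.0719). Odc1, Smox and Sat1 were called in all 6 fits with 1 library left out.

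The metallothionein genes Mt1 and Mt2, whose products bind zinc and copper, lie side by side on chromosome 8 and were both called higher. They are induced by metal through metal response elements, and the 250 bases before the start of Mt1 (chr8:94178839-94179088, plus strand) and Mt2 (chr8:94172368-94172617, plus strand), from RefSeq on GRCm38.p6, are shown 5′ to 3′ with matches to TGCACNC or TGCGCNC on either strand in capitals.
Mt1: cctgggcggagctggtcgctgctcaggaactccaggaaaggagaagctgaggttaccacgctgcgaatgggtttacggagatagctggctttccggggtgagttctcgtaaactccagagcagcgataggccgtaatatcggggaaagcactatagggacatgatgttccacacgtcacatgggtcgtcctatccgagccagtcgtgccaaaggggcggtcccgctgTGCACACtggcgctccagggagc
Mt2: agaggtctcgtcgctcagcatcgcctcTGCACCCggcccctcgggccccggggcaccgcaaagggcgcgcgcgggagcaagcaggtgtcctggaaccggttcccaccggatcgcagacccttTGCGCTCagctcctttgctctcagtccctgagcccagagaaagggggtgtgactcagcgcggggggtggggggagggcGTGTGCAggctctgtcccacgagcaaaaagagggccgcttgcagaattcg
Within these 250 bases Mt1 held 1 match and Mt2 held 3. Such a match was in 5749 of all 27025 promoters of that length (21.3%), with 2 or more in 1403 (5.19%). Bases outside this stretch, also those past the listed start, were not searched, so the numbers are no count of all elements of a gene. These are matches of letters and no measured sites. Mt1 stood at 29, 24.3 and 35.9 CPM in tumor and 0.412, 0.369 and 0.169 CPM in spleen (log2 fold change 6.54 ± 0.54, adjusted p = 0.000348). Mt2 stood at 4.88, 3.02 and 8.85 CPM in tumor and 0.309, 0.492 and 0.169 CPM in spleen (log2 fold change 4.14 ± 0.59, adjusted p = 0.00458). All tumor libraries were above all spleen libraries. None of the other 8 tested genes of metal and zinc handling was called. Mt1 and Mt2 were called in all 6 fits with 1 library left out.

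Genes of the BCL-2 family and death receptors were called higher in 6 of 24 tested members, and none was called lower. Those called numbered 2, 2 and 2 without Spleen Flox replicate 1, 2 or 3, and 4, 5 and 4 without Tumor Flox replicate 1, 2 or 3. Bcl2l1, which encodes the anti-apoptotic protein BCL-xL (chromosome 2, 152758732 to 152833803), stood at 5589, 5496 and 6283 CPM in tumor and 1580, 1315 and 1459 CPM in spleen (log2 fold change 2.00 ± 0.12, adjusted p = 0.00116). Bak1, a pro-apoptotic effector, stood at 8.07, 8.01 and 7.61 CPM in tumor and 1.85, 2.21 and 2.63 CPM in spleen (log2 fold change 1.81 ± 0.35, adjusted p = 0.0242). Anti-apoptotic and pro-apoptotic members were thus both called higher. Bcl2a1a, a copy of the anti-apoptotic A1 gene, had a log2 fold change of 2.46 ± 0.34, with the same limit on near-identical copies as above. Bcl2, the anti-apoptotic gene of resting T cells, stood at 5.2, 1.84 and 166 CPM in tumor and 90.6, 142 and 202 CPM in spleen and was not called (log2 fold change -1.33 ± 1.39, adjusted p = 0.561). Bak1 lost its call without any 1 of the 6 libraries (adjusted p 0.0519 to 0.0797). Bcl2l1 and Bcl2a1a were called in all 6 fits with 1 library left out.

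Genes of growth and respiration showed few calls. Of 50 cell cycle genes 40 had higher values and 1 was called, the mitotic kinase gene Cdk1 at 179, 65.5 and 11.6 CPM in tumor and 2.47, 1.84 and 2.37 CPM in spleen (log2 fold change 5.24 ± 1.13, adjusted p = 0.0332). Mki67, which encodes the proliferation marker Ki-67, stood at 77.8, 114 and 449 CPM in tumor and 35.7, 32.2 and 36.1 CPM in spleen and was not called (log2 fold change 2.62 ± 0.76, adjusted p = 0.0772), with Tumor Flox replicate 3 the highest. Of 37 nuclear genes of oxidative phosphorylation and 77 cytoplasmic ribosomal protein genes none was called, with medians of 0.38 and -0.21. The smallest p of these lists belonged to the complex I gene Ndufb8 (14, 12.1 and 17.9 CPM in tumor and 5.66, 8.36 and 9.15 CPM in spleen, log2 fold change 0.92 ± 0.41, adjusted p = 0.192) and to the ribosomal gene Rps4x (7.53, 7.49 and 8.74 CPM in tumor and 9.58, 16 and 15.4 CPM in spleen, log2 fold change -0.78 ± 0.40, adjusted p = 0.249). All 13 mitochondrially encoded genes had lower values in tumor (median -0.75) and 1 was called, the complex I subunit gene ND1 (393, 364 and 485 CPM in tumor and 842, 1066 and 1090 CPM in spleen, log2 fold change -1.27 ± 0.27, adjusted p = 0.0304). Cdk1 and ND1 lost their calls without any 1 spleen library or Tumor Flox replicate 1 or 2 (adjusted p 0.0559 to 0.102).

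**Figure D3:**
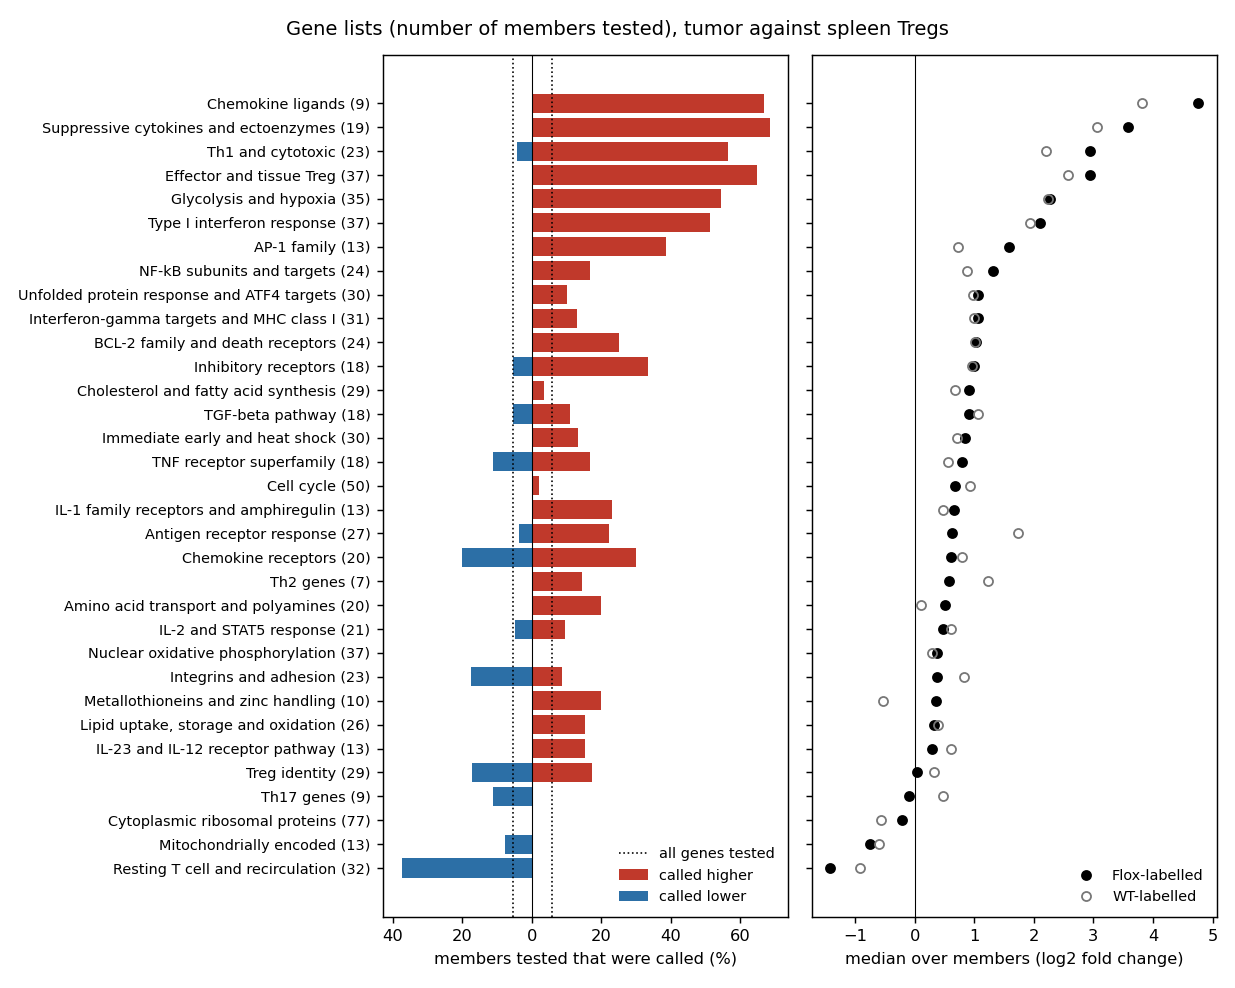
Left, the share of tested members called higher (red, to the right) or lower (blue, to the left) in each list of pathways and cell states with at least 5 tested members (cell type markers are not drawn), with dotted lines at 5.72% and 5.39% of all genes tested. Right, the median log2 fold change of tumor over spleen over the same members in Flox-labelled (filled) and WT-labelled (open) libraries. Among the lists drawn, chemokine ligands have the highest Flox-labelled median (4.76) and resting T cell genes the lowest (-1.42).

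Markers of other cells that a sort can hold also differed between the sites. Of 17 tested B cell and plasma cell markers 12 were called lower and none higher (median log2 fold change -6.98, or -4.35 with genes at 0 counts set at their bound). Their summed level was 572 to 728 CPM in spleen and 165 to 220 CPM in tumor, where the MHC class II genes and Cd74 of the list are shared with other cells. The B cell receptor gene Cd79a stood at 0.637, 0.525 and 0.341 CPM in tumor and 9.47, 3.56 and 2.8 CPM in spleen, and its partner Cd79b at 0.425, 0.919 and 0.908 CPM in tumor and 4.43, 8.61 and 3.9 CPM in spleen. The spleen libraries thus held B cell transcripts, and 7 of 20 members were at 0 in tumor. Of the erythroid and platelet markers 4 were tested, the erythroid genes Hbb-bs, Hba-a1, Hba-a2 and Alas2, and all 4 were called lower. The whole list summed to 97.7 to 292 CPM in spleen and 0.657 to 5.2 CPM in tumor. No platelet marker was tested. The platelet gene Pf4 went the other way, with 35 counts in tumor and 1 in spleen. Its ratio was 40.1-fold (counting interval 6.75 to 1630). Itga2b had 4 counts in tumor and 1 in spleen, and Ppbp had 0 in tumor and 1 in spleen. Hbb-bs, the beta-globin gene, stood at 0.425, 0 and 0.114 CPM in tumor and 50.8, 15.6 and 46.8 CPM in spleen (log2 fold change -7.52 ± 0.94, adjusted p = 0.00348), while the near-identical Hba-a1 and Hba-a2 cannot be separated. How far these cells contribute to the calls lower in tumor was not tested. The number of B cell markers called lower was 7, 7 and 9 without Spleen Flox replicate 1, 2 or 3, and 5, 8 and 6 without Tumor Flox replicate 1, 2 or 3. Cd79a and Cd79b lost their calls without any 1 tumor library (adjusted p 0.0501 to 0.085). Hbb-bs was called in all 6 fits with 1 library left out.

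Some myeloid and stromal markers were called higher in tumor. Of 13 tested macrophage and monocyte markers 5 were called higher, or 3, 3 and 3 without Spleen Flox replicate 1, 2 or 3, and 4, 6 and 3 without Tumor Flox replicate 1, 2 or 3. Their sum was 2178 to 4447 CPM in tumor and 553 to 665 CPM in spleen, but Ccr2, which T cells also express, made up most of it in tumor, and without Ccr2 the sums overlapped (300 to 662 CPM and 289 to 375 CPM). With Apoe, Ctss and Fn1 left out as well, they were 60.2, 52.1 and 109 CPM in tumor and 23, 8.24 and 50.1 CPM in spleen. The groups then nearly touched, at 52.1 and 50.1 CPM, and this separation depends on which genes are left out. Apoe stood at 14.5, 33.9 and 158 CPM in tumor and 263, 186 and 154 CPM in spleen. Cd68, a lysosomal protein gene of macrophages, stood at 16.2, 16.8 and 32.4 CPM in tumor and 1.13, 0.123 and 0.763 CPM in spleen (log2 fold change 4.93 ± 0.68, adjusted p = 0.00735). The matrix gene Fn1 stood at 93.5, 55.2 and 188 CPM in tumor and 1.34, 0.861 and 1.44 CPM in spleen (log2 fold change 6.49 ± 0.79, adjusted p = 0.00671). Ms4a7 stood at 4.35, 1.58 and 1.48 CPM in tumor and 0, 0 and 0.0847 CPM in spleen. Of the 13 tested markers 12 had higher values in tumor. Adgre1 (4.03, 1.97 and 1.25 CPM in tumor and 0.824, 0.492 and 1.1 CPM in spleen) and Lyz2 (6.58, 6.57 and 15.1 CPM in tumor and 6.18, 4.3 and 7.29 CPM in spleen) were not called. Cd14 and Fcgr1 had too few counts for the test, with 85 counts of Cd14 in tumor and 3 in spleen, a ratio of 32.5-fold (95% counting interval 10.8 to 161), and 63 counts of Fcgr1 in tumor and 0 in spleen, which is at least 24.1-fold higher in tumor. The other untested markers were split, with C1qb, Spi1 and Lyz1 at more counts in tumor and Mrc1 and Cd163 at more in spleen. Mrc1 had 8 counts in tumor and 400 in spleen, 375 of them in Spleen Flox replicate 3. Cd163 had 0 counts in tumor and 10 in spleen. Of 6 tested fibroblast and endothelial markers 3 were called higher, or 1, 1 and 1 without Spleen Flox replicate 1, 2 or 3, and 2, 5 and 2 without Tumor Flox replicate 1, 2 or 3. They had a summed level of 157 to 259 CPM in tumor and 169 to 178 CPM in spleen over 15 members that include Thy1, which T cells express. The matrix genes Sparc and Col3a1 stood at 37.8, 10.9 and 53.7 CPM in tumor and 0.206, 0 and 0.339 CPM in spleen (log2 fold change 7.32 ± 0.95, adjusted p = 0.00348) and 52.3, 7.22 and 16.8 CPM in tumor and 0.721, 0 and 0.0847 CPM in spleen (log2 fold change 6.50 ± 1.15, adjusted p = 0.0106). Of 4 tested dendritic cell markers 3 were called higher, Zbtb46, Bst2 and Fscn1, and 1 had a lower value. The whole list summed to 63.3 to 80.1 CPM in tumor and 7.71 to 58.3 CPM in spleen. Zbtb46 (4.03, 6.17 and 7.95 CPM in tumor and 0.412, 0.246 and 0.254 CPM in spleen) overlaps the T cell gene Lime1. Bst2 is also on the type I interferon list. Among untested markers, tumor and spleen counts were 17 and 0 for Batf3, 23 and 21 for Xcr1 and 8 and 10 for Flt3. They were 3 and 2 for Cd209a, 2 and 0 for Ccl22, 0 and 4 for Clec9a and 0 and 5 for Siglech. Carcinoma markers summed to 184 to 403 CPM in tumor and 300 to 797 CPM in spleen. Most of this sum was Lgals4 in every library, in spleen as in tumor. The sums therefore cannot show how many carcinoma cells the sorts held. No count in any library was found for 5 of the 13, among them Krt19, Krt20, Cdx2 and Cldn4, and of the 2 tested, Epcam (2.65, 3.15 and 1.02 CPM in tumor and 10.2, 5.04 and 23.6 CPM in spleen) and Lgals4 (181, 389 and 401 CPM in tumor and 767, 295 and 542 CPM in spleen), none was called. NK cell markers summed to 1.31 to 30.8 CPM in tumor and 5.41 to 40 CPM in spleen, and Kit reached 0.849, 1.71 and 320 CPM in tumor, high in 1 library only. The part of these cells in the genes called higher in tumor, such as the collagen genes above, was not tested. Ms4a7 lost its call without any 1 spleen library or Tumor Flox replicate 2 or 3 (adjusted p 0.0538 to 0.0851). Col3a1 lost its call without any 1 spleen library (adjusted p 0.058 to 0.0666). Cd68, Fn1, Sparc and Zbtb46 were called in all 6 fits with 1 library left out. Dendritic cell markers called higher numbered 1, 2 and 2 without Spleen Flox replicate 1, 2 or 3, and 2, 3 and 2 without Tumor Flox replicate 1, 2 or 3.

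**Figure D4:**
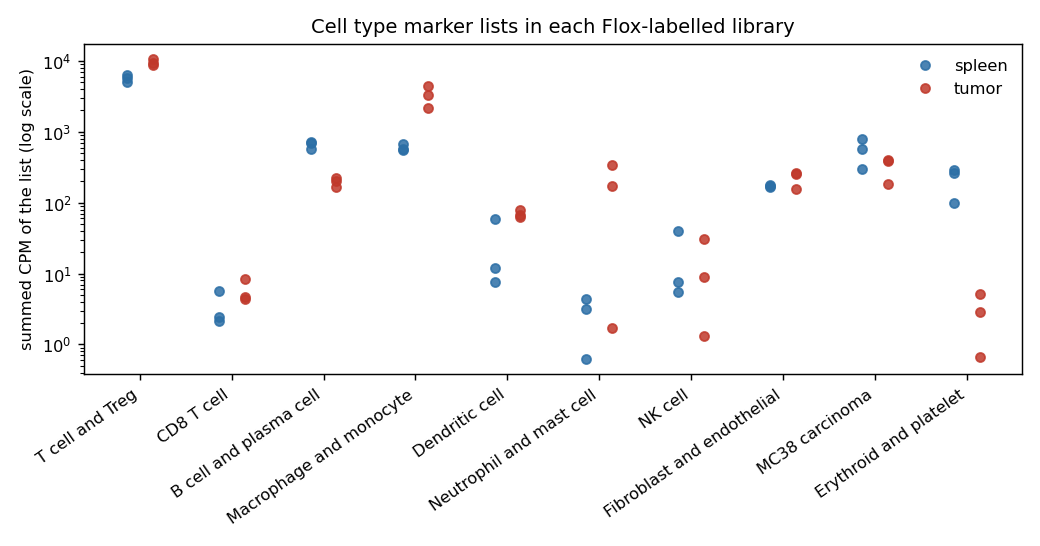
Summed CPM (log scale) of each list of cell type markers in each of the 3 spleen (blue) and 3 tumor (red) Flox-labelled libraries. B cell and erythroid sums are lower in every tumor library, the macrophage sum, which holds Ccr2, is higher in every tumor library, and the carcinoma sums, which are mostly Lgals4, overlap.

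The same contrast was set beside the WT-labelled libraries, which are other samples. With all 14 libraries in 1 fit, the tumor and spleen comparison of Flox-labelled libraries had 1592 calls among 12008 genes (13.3%), and 899 of the 1196 calls above were among them in the same direction. Of 1193 called genes with a value in the WT-labelled libraries, 1071 (89.8%) had the same sign there. A fit of the WT-labelled libraries alone called 1017 of 10560 genes, and 471 genes were called in the same direction in both, which is 39.4% of the Flox-labelled and 46.3% of the WT-labelled calls. The test of the difference between labels called 0 of 12008 genes (0%) in edgeR, with 1440 at an unadjusted p under 0.05, while limma voom called 0 and DESeq2 123. With 1 library left out edgeR called 0 to 5, with 2 without Spleen WT replicate 4 and 3, 5 and 1 without Tumor Flox replicate 1, 2 or 3. A p that misses the threshold does not show that the changes were alike. For 4 genes chosen after their values were seen, the log2 fold changes of that fit in Flox-labelled and WT-labelled libraries were -4.05 and -0.60 for S1pr1, 4.94 and -1.38 for Cd68, 3.57 and -1.46 for Mx2, and 2.21 and -0.85 for Slc38a2. None of these differences was called. The smallest p belonged to Ankrd55, an ankyrin repeat gene, with a log2 difference of 6.91 ± 1.13, Wdr19, a gene of transport in cilia, with -3.96 ± 0.79, and Tnfrsf11a, which encodes RANK, with 11.94 ± 2.36 (adjusted p = 0.177 for each). Ankrd55 stood at 120, 69.5 and 186 CPM in tumor and 2.06, 6.39 and 8.81 CPM in spleen and Tnfrsf11a was high in 1 library, at 143 CPM in Tumor Flox replicate 3 and 2.2 and 0.639 CPM in the others. The labels also differed in sex-linked genes, with Xist averaging 311 CPM in tumor and 175 CPM in spleen in WT-labelled libraries and at most 3.4 CPM in any Flox-labelled library, and Ddx3y averaging 31.9 CPM in tumor and 7.64 CPM in spleen in WT-labelled libraries, so the genotype label and this difference cannot be told apart.

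**Figure D5:**
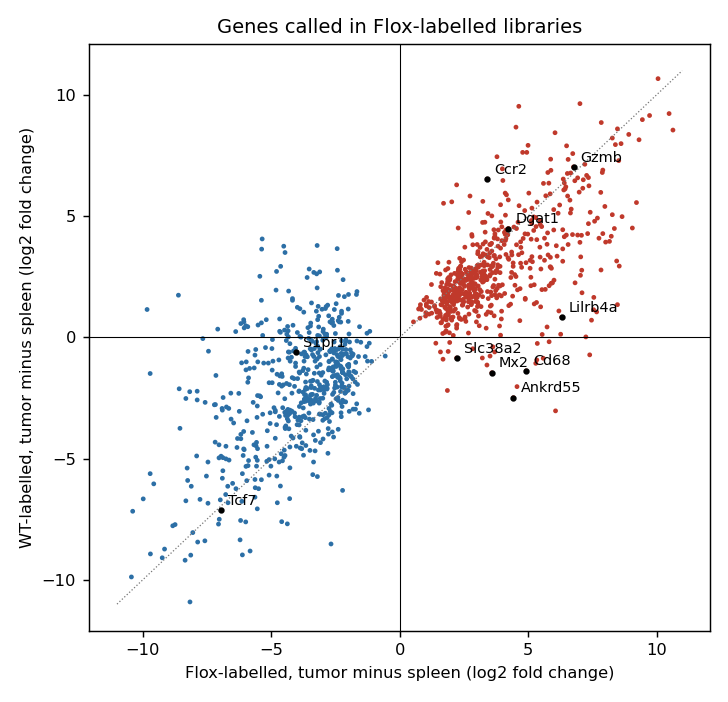
Each point is 1 of the 1193 genes called in the Flox-labelled libraries that also has a WT-labelled value, with the log2 fold change of tumor over spleen in Flox-labelled (horizontal) and WT-labelled (vertical) libraries, red for called higher and blue for called lower, and the dotted line marks equal values. Of these, 1071 have the same sign on both axes, and S1pr1, Cd68, Mx2, Slc38a2 and Ankrd55 lie far from the line.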

How the data were processed

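RNA-seq read counts per gene were deposited by the authors as 1 table of 27179 NCBI Gene numbers and 14 libraries, which the values show to be raw counts. The build was mm10 per the submitters' processing notes, and no label or header names the aligner, the counter, the annotation or the strand setting. Gene names came from RefSeq (GRCm38.p6) for 25275 numbers and from GENCODE for 18. The remaining 1886 numbers, which held 1.45 to 1.76% of counts in the Flox-labelled libraries, were tested without a name.

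Groups followed the labels. The 3 tumor and 3 spleen Flox-labelled libraries were fitted alone with edgeR 4.0.16 (filterByExpr, TMM factors of 0.863 to 1.15, quasi-likelihood F test), with p-values adjusted over all genes tested by Benjamini-Hochberg and a call at 0.05. SE is the log2 fold change divided by the root of F. A fit of all 14 libraries gave the comparison with WT-labelled libraries and the test of the difference. The floor of 3 counts was 0.29 to 0.383 CPM per library, and counting intervals are exact 95% intervals. Alternatives were DESeq2 1.42.0, limma voom 3.58.1, RLE factors, other filters, a replicate block, an older quasi-likelihood fit and leaving out each library. The code was tested on simulated data. Within the tumor and spleen Flox-labelled groups no library repeated another, since their counts differed beyond sampling noise. This does not tell technical replicates from separate mice, and the WT-labelled libraries were not checked.

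Named genes were up to 15 per direction with the largest non-overlapping called changes at an average of at least 2 log2 CPM, a set of Treg genes, and up to 6 called genes per list by p, or those with the smallest p where none was called. Predicted genes, unmatched numbers and antigen receptor segments were not named. The comparison, the lists and the genes were chosen with earlier results of these data known. Capg, Gata1, Foxo1, Egr2, Flicr, Lef1, Tgfb1, Cxcr3, Pdcd1, Bcl2, Mki67, Cd3e, Cd4, Ddx3y, Adgre1, Lyz2, Cd14, Fcgr1, C1qb, Spi1, Lyz1, Mrc1, Cd163, Apoe and Pf4 fell outside that rule and were added after their values were seen. The same holds for the untested dendritic cell markers Batf3, Xcr1, Flt3, Cd209a, Ccl22, Clec9a and Siglech. A few further genes covered by the rule are left unreported here.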

Additional observations from a re-analysis of the deposited data

How the results depend on the processing

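The 1196 calls between tumor and spleen in the Flox-labelled libraries became 2462 with DESeq2, 744 with the older robust quasi-likelihood fit and 513 to 1074 with 1 library left out. limma voom (945), RLE factors (1204), no filter on low counts (831) and a filter at 5 CPM (877) stayed within 1.5 times. In the fit of all libraries the 1592 calls became 1011 with a filter at 5 CPM and 901 to 1710 with 1 library left out. The difference between labels went from 0 calls to 123 with DESeq2 and to 0 to 5 with 1 library left out. The cause of these shifts was not tested, apart from the fewer samples or genes that some of these settings use.

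The labels do not say whether equal replicate numbers mark the same mouse. Same-numbered tumor and spleen libraries had correlations of deviations of -0.029, -0.006 and -0.001. With 3 libraries per tissue and a large spread between them, such values cannot decide whether the libraries were paired. With the replicate number as a block, 448 genes were called between tumor and spleen (224 in each direction), 775 in the fit of all libraries and 0 for the difference.

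Of 179 named genes tested 158 were called. Of these, 67 were called in every fit with 1 library left out and 57 in every alternative, and none of the 158 changed direction. Some of the 67 thus lost their calls in other settings. In edgeR's fit of all 14 libraries these included Prf1 (adjusted p = 0.065), Mx2 (adjusted p = 0.127) and Tcim. H2-K1 lost its call in DESeq2 (adjusted p = 0.0583). The log2 fold change of Foxp3, which was not called, changed sign to -0.06 without Spleen Flox replicate 2 and -0.09 without Tumor Flox replicate 2, in a range of -0.09 to 0.13. That of Ccr7, also not called, was 0.00 with limma voom, 0.39 without Spleen Flox replicate 2 and 0.05 without Tumor Flox replicate 2, in a range of -0.45 to 0.39. The median of 33 of 38 lists kept its sign, and it changed for Treg identity, Th2, Th17, lipid and metallothionein genes. The median over all genes tested, 0.04, was 0.08 with RLE factors, -0.08 with limma voom and 0.16 without a filter. With 3 libraries per tissue and a median SE of 0.634, 1188 of the 1196 calls were of more than 2-fold.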
